A study of Rattus norvegicus with 16 samples.

Results

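The genes described here are the small leucine-rich proteoglycans (SLRPs): decorin (Dcn), biglycan (Bgn), asporin (Aspn), fibromodulin (Fmod), lumican (Lum), prolargin (Prelp), keratocan (Kera), osteomodulin (Omd), osteoglycin (Ogn) and epiphycan (Epyc). They were chosen by symbol, and all 10 were found among the 23552 genes of the expression table. RNA was sequenced from knee cartilage of rats aged 10 weeks in 16 libraries. Of these, 4 came from healthy cartilage, whose libraries were named Sham, and 4 from osteoarthritic cartilage, whose libraries were named PBS. The latter group is called untreated below because its titles name no carrier, cells or drug. Whether it was given PBS is not stated. Another 4 came from osteoarthritic cartilage that had received hyaluronic acid, cells and a drug (the HA group). The last 4 came from osteoarthritic cartilage that had received a coacervate, a dense droplet phase that separates from a polymer solution, together with cells and a drug (the coacervate group). The labels name neither the drug, the cells, the strain nor how osteoarthritis was induced, and no group received a carrier without cells and drug. Whether the replicates were separate animals is not stated either, so the p-values measure the spread between these samples, which may be technical.

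SLRPs are secreted proteins built around leucine-rich repeats, and most carry glycosaminoglycan chains. They bind collagen fibrils, control fibril diameter and spacing, and hold growth factors such as TGF-beta near the cell. In class I, Dcn and Bgn carry chondroitin or dermatan sulphate chains, whereas Aspn carries an aspartate stretch in place of the chain. In class II, Fmod, Lum and Kera can carry keratan sulphate, and Fmod and Omd hold sulphated tyrosines. Prelp binds collagen, and it binds heparan sulphate through a basic end. Ogn and Epyc belong to class III. In joints, Dcn, Bgn, Fmod and Lum are found in cartilage and in tendon, ligament and synovium, Omd is known from bone, Kera from the cornea, and Epyc from growth cartilage.

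In brief, 8 of the 9 SLRP genes abundant enough to test had a higher mean level in untreated osteoarthritic than in healthy cartilage. Of all tested genes, 52.1% had a positive fold change. The largest rises were those of Aspn (1.61-fold), Fmod (1.56-fold), Bgn (1.5-fold) and Dcn (1.47-fold). Most of these genes varied together in the same libraries, so the 8 are not independent. None of the 9 passed the test across all genes, against 0.502% of all genes. Bgn passed it, among 1.14% of all genes, when a pair of osteoarthritic libraries that stood apart was left out. That pair had the lowest Bgn of its group, so its removal favoured the pass. Against untreated osteoarthritic cartilage the fold changes lay between 0.72 and 1.11 in the HA group and between 0.71 and 1.21 in the coacervate group. None passed, against 0% and 0.146% of all genes. Bgn, Fmod and Prelp varied together from library to library, with correlations of 0.86 to 0.91, and Omd stood apart from them.

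Total counts were 36988722 to 50725189 per library, and 18627 to 19457 genes had at least 1 count. The cartilage markers Col2a1 (169 to 593 FPKM) and Acan (8.14 to 38.9 FPKM) were present in every library, but so were markers of other tissues. The bone markers Ibsp (352 to 707 FPKM) and Bglap (192 to 446 FPKM) were high. In healthy libraries 8 osteoblast and osteocyte markers summed to 1114 to 1469 FPKM, and 9 chondrocyte markers to 351 to 739 FPKM. The levels below are therefore not those of cartilage alone. FPKM is the number of fragments scaled to gene length and sequencing depth. Haemoglobin genes took 9.57% to 15.6% of the counts in 14 libraries, and 20.6% and 19.99% in osteoarthritic replicates 2 and 3. These 2 libraries also lay apart on the first principal component, at 69.6 and 58.9 against -32.3 to 12.7 in the others. Skeletal muscle markers summed to 18664 CPM (counts scaled to a fixed library size) in coacervate replicate 3 and to 3458 to 8791 CPM elsewhere. Because these are bulk samples, more cells of a type and more RNA per cell cannot be told apart.

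The length-scaled level of the family was carried by 3 genes. Dcn averaged 326 FPKM over the 16 libraries (rank 171 of all genes), Bgn 239 (rank 235) and Lum 218 (rank 263). Dcn was above Bgn in 15 of 16 libraries, whereas the order of Bgn and Lum was unsettled: Bgn was above Lum in 10 of 16 libraries and in 1 of the 4 healthy ones. Below them followed Fmod (93.4 FPKM), Prelp (63.5), Ogn (34.4) and Aspn (15.5), each above the next in all 16 libraries. Kera (10.5 FPKM) was under Aspn in 13 libraries and above Omd (6.78) in 13, so these neighbours overlapped. Together Dcn, Bgn and Lum made up 72.8% to 79.4% of the summed SLRP FPKM in each library.

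The summed SLRP level was 829, 868, 852 and 625 FPKM in healthy replicates 1 to 4. It was 1341, 665, 852 and 1273 FPKM in osteoarthritic replicates 1 to 4. By this measure replicates 1 and 4 lay above every healthy library and replicates 2 and 3 within the healthy range. In the HA group it was 1002, 1335, 1217 and 962 FPKM, all above the healthy libraries. In the coacervate group it was 961, 1100, 1430 and 818 FPKM, and the lowest of these fell inside the healthy range. FPKM was not adjusted for library composition. The scaling factor used for the CPM below was 0.838 and 0.877 in osteoarthritic replicates 2 and 3, and 0.976 to 1.07 in the other libraries. A low factor raises the adjusted level. Dcn of osteoarthritic replicate 2 was inside the healthy range by FPKM (270) and above it by that CPM (713). The place of replicates 2 and 3 against healthy thus depends on the measure. The balance of the leading pair also differed by library: the ratio of Bgn to Dcn FPKM was 0.412 and 0.387 in osteoarthritic replicates 2 and 3, the lowest of the 16. It was 0.858 and 1.25 in osteoarthritic replicates 1 and 4, and 0.530 to 0.926 in the healthy libraries.

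**Figure D1:**
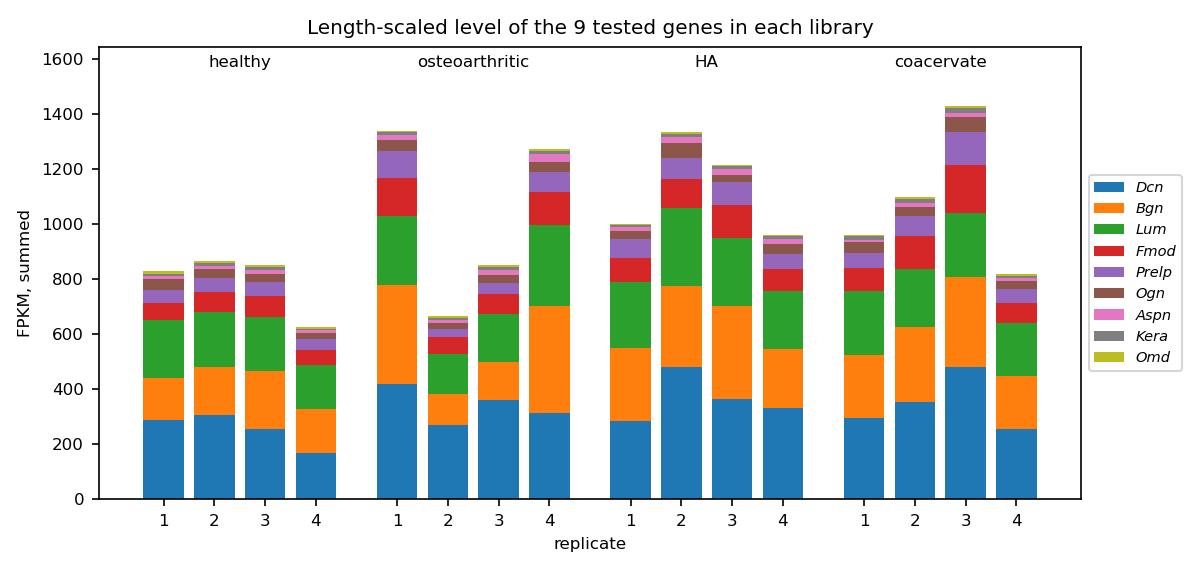
Stacked bars give the FPKM of the 9 tested SLRP genes in each of the 16 libraries, by group and replicate. Dcn, Bgn and Lum fill most of every bar, and the bars of osteoarthritic replicates 2 and 3 (665 and 852 FPKM) are lower than those of replicates 1 and 4 (1341 and 1273 FPKM). These values are not adjusted for library composition.

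Epyc, a proteoglycan of growth plate cartilage, was near the limit of detection. Its raw counts were 51, 37, 33 and 27 in the healthy libraries, 76, 50, 34 and 59 in the osteoarthritic libraries, 35, 98, 79 and 12 in the HA group, and 40, 4, 0 and 45 in the coacervate group. The level never exceeded 0.84 FPKM, so Epyc fell below the abundance filter (at least 1 FPKM in at least 4 libraries) and was not tested. If counts are independent, the count of 0 in coacervate replicate 3 allows up to 3 counts, and more if mates of a pair were counted separately. All groups overlapped.

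The first comparison asked how SLRP expression in osteoarthritic cartilage differed from that in healthy cartilage. Levels are in normalised CPM, which scales each library to a common depth and may be compared between libraries but not between genes. Fold changes come from edgeR's quasi-likelihood test on all 14337 tested genes, with p-values adjusted over all of them by the method of Benjamini and Hochberg and a threshold of 0.05.

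Among the class I genes, Dcn, which binds collagen fibrils and TGF-beta, stood at 617, 616, 518 and 369 CPM in healthy replicates 1 to 4. It stood at 859, 713, 907 and 634 CPM in osteoarthritic replicates 1 to 4. Every osteoarthritic library was above every healthy one, and the Dcn groups were the only ones of the 9 in this comparison that did not overlap. Of all tested genes, 3.14% had osteoarthritic libraries that all lay above the healthy ones. For Dcn the log2 fold change was 0.55 ± 0.22 (SE, 95% interval 0.08 to 1.03, edgeR adjusted p = 0.231).

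Bgn, a close relative of Dcn that also acts as a ligand of Toll-like receptors, was even among healthy libraries and split among osteoarthritic ones. It stood at 426, 462, 555 and 445 CPM in healthy and at 960, 383, 458 and 1033 CPM in osteoarthritic replicates 1 to 4. Replicates 1 and 4 were far above the healthy range and replicates 2 and 3 lay below or within it. Relative to the mean, the SD was 12.1% in healthy and 47.3% in osteoarthritic libraries. Its log2 fold change was 0.59 ± 0.28 (interval -0.01 to 1.18, edgeR adjusted p = 0.284). Without osteoarthritic replicates 2 and 3 it was 1.07 ± 0.20 (edgeR adjusted p = 0.0238), and Bgn was then the only SLRP gene to pass, while 1.14% of all genes did. This left only replicates 1 and 4, the highest in Bgn, so the larger value follows from the choice of libraries.

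Aspn, which competes with Dcn for collagen and binds TGF-beta, had the largest log2 fold change of the 9 in this comparison. It stood at 33.1, 27.0, 37.3 and 28.3 CPM in healthy and at 40.1, 32.5, 57.0 and 73.0 CPM in osteoarthritic replicates 1 to 4. Osteoarthritic replicate 2 lay within the healthy range and the other replicates above it. In log2 terms the fold change was 0.69 ± 0.25 (interval 0.17 to 1.21, edgeR adjusted p = 0.208), and 0.84 without osteoarthritic replicates 2 and 3.

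Among the class II genes, Fmod, a fibril-binding protein of cartilage and tendon, stood at 242, 280, 305 and 228 CPM in healthy replicates 1 to 4. It stood at 539, 296, 356 and 452 CPM in osteoarthritic replicates 1 to 4, and only replicate 2 reached into the healthy range. Its log2 fold change was 0.64 ± 0.25 (interval 0.10 to 1.18, edgeR adjusted p = 0.225). Prelp, which links the matrix to cell-surface heparan sulphate, was nearly level in healthy libraries, at 198, 204, 202 and 174 CPM. It stood at 402, 150, 189 and 292 CPM in osteoarthritic replicates 1 to 4, split the same way as Bgn. The log2 fold change of Prelp was 0.41 ± 0.29 (interval -0.20 to 1.02, edgeR adjusted p = 0.456) and 0.83 without osteoarthritic replicates 2 and 3 (edgeR adjusted p = 0.176). Its SD relative to the mean was 7.22% in healthy and 43.8% in osteoarthritic libraries.

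Lum, best known for ordering collagen in the cornea and skin, had the smallest ratio of highest to lowest FPKM over the 16 libraries (2.03) of the 9 tested genes. It stood at 498, 433, 434 and 380 CPM in healthy and at 554, 419, 473 and 657 CPM in osteoarthritic replicates 1 to 4, and the groups overlapped. Its log2 fold change was 0.27 ± 0.14 (interval -0.03 to 0.57, edgeR adjusted p = 0.326). Kera stood at 17.6, 27.7, 19.9 and 13.1 CPM in healthy and at 28.1, 21.2, 25.4 and 26.1 CPM in osteoarthritic libraries. Its groups overlapped through healthy replicate 2, with a log2 fold change of 0.36 ± 0.26 (edgeR adjusted p = 0.461).

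Omd, which binds integrins and hydroxyapatite in bone, was the only tested SLRP gene without a positive value, and it had no clear direction. It stood at 20.4, 16.9, 18.7 and 11.7 CPM in healthy and at 10.8, 18.7, 25.4 and 12.6 CPM in osteoarthritic replicates 1 to 4. The 2 osteoarthritic libraries lowest in Bgn and Prelp were the highest in Omd. Its log2 fold change was -0.01 ± 0.25 (interval -0.53 to 0.52, edgeR adjusted p = 0.993), and -0.54 without osteoarthritic replicates 2 and 3 (edgeR adjusted p = 0.301). In class III, Ogn, also called mimecan, a regulator of collagen fibril growth, stood at 69.5, 49.6, 45.8 and 36.8 CPM in healthy and at 64.8, 51, 58.0 and 60.7 CPM in osteoarthritic libraries, which overlapped. Its log2 fold change was 0.22 ± 0.24 (edgeR adjusted p = 0.650).

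None of the 9 tested SLRP genes passed with edgeR, against 0.502% of all 14337 genes, and none passed with DESeq2 or limma. At an unadjusted p under 0.05 there were 3 (Dcn, Fmod and Aspn), against 17.8% of all genes. The log2 fold change was positive for 8 of 9, against 52.1% of all genes, and the median over the 9 was 0.41 against 0.01 over all genes. In simulated counts with known changes, the same procedure recovered 22.4% of changes of 1.5-fold and 74.6% of changes of 2-fold. The simulated libraries were drawn independently, without a pair that stood apart, so these shares may not hold for Bgn or Prelp. The haemoglobin share was high in the same 2 osteoarthritic libraries in which Bgn and Prelp were low. With haemoglobin genes left out of the fit, no SLRP gene passed either. The part of the haemoglobin share in the low Bgn and Prelp values was not tested.

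**Figure D2:**
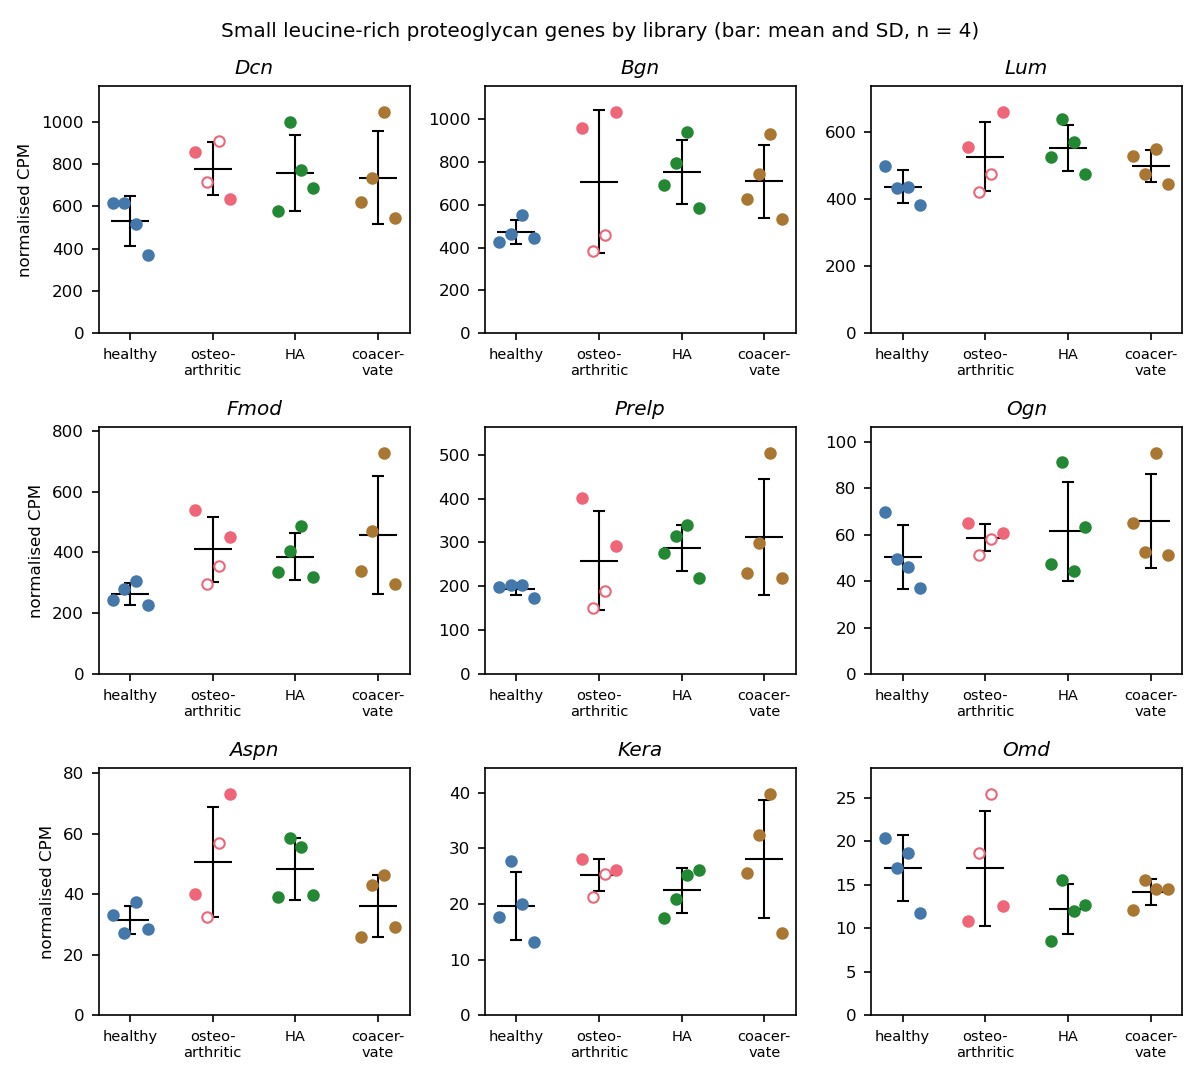
Each panel shows the normalised CPM of 1 SLRP gene by group; points are libraries, bars the mean and SD (n = 4), and open symbols osteoarthritic replicates 2 and 3. For Bgn the open symbols (383 and 458 CPM) sit level with the healthy libraries and the filled ones (960 and 1033 CPM) above them, whereas for Omd the open symbols are the highest of the group.

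The next comparisons asked whether cartilage given cells and drug in HA or in a coacervate differed from untreated osteoarthritic cartilage. Both share the 4 untreated osteoarthritic libraries, including the 2 that stood apart. In the HA group Dcn stood at 578, 999, 771 and 685 CPM and Bgn at 695, 795, 940 and 584 CPM. Fmod stood at 336, 404, 488 and 318 CPM and Prelp at 277, 315, 339 and 218 CPM. Each of these 4 genes overlapped the untreated libraries, and none of the HA libraries reached down to the lowest untreated value of Bgn or Prelp.

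The log2 fold changes of the HA group against untreated osteoarthritic cartilage were -0.04 ± 0.22 for Dcn (interval -0.51 to 0.44) and 0.09 ± 0.28 for Bgn (-0.50 to 0.68). They were -0.09 ± 0.25 for Fmod (-0.62 to 0.44), 0.15 ± 0.29 for Prelp (-0.46 to 0.76) and 0.07 ± 0.14 for Lum (-0.23 to 0.37). Omd was the farthest from 0, at -0.47 ± 0.25 (interval -1.0 to 0.06, edgeR adjusted p = 0.745); it stood at 8.52, 15.6, 12.0 and 12.6 CPM in the HA group. Without osteoarthritic replicates 2 and 3 the Omd value was 0.06, and that of Bgn -0.40. With edgeR, DESeq2 or limma no SLRP gene passed (percent called among all genes with edgeR: 0%), and none had an unadjusted edgeR p under 0.05, against 6.34% of all genes. The value was positive for 4 of 9 (47.8% of all genes), with a median of -0.04 against -0.01.

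In the coacervate group Dcn stood at 621, 732, 1045 and 543 CPM, Bgn at 629, 746, 930 and 535 CPM and Lum at 529, 474, 547 and 444 CPM. Fmod stood at 338, 470, 725 and 295 CPM and Prelp at 229, 300, 503 and 218 CPM. Replicate 3, the library with the most skeletal muscle RNA, was the highest of the group for these 5 genes and for Ogn (94.9 CPM), Aspn (46.5 CPM) and Kera (39.7 CPM). Aspn stood at 25.8, 42.9, 46.5 and 29.2 CPM, overlapping both healthy and untreated osteoarthritic libraries.

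Against untreated osteoarthritic cartilage, Aspn had the value farthest from 0 in the coacervate group, a log2 fold change of -0.49 ± 0.24 (interval -1.01 to 0.03, edgeR adjusted p = 0.251). The other values ran from -0.25 for Omd to 0.28 for Prelp (interval -0.34 to 0.89), with Bgn at 0.00 (-0.59 to 0.59). Without coacervate replicate 3 the value of Prelp was -0.05, that of Fmod turned from 0.15 to -0.16, and that of Aspn was -0.63 (edgeR adjusted p = 0.296). With osteoarthritic replicates 2 and 3 left out the value was -0.49 ± 0.20 for Bgn (edgeR adjusted p = 0.371), -0.15 for Prelp and 0.28 for Omd. No SLRP gene passed with edgeR, DESeq2 or limma, against 0.146% of all genes with edgeR, and none had an unadjusted edgeR p under 0.05, against 21.8% of all genes. Positive values numbered 5 of 9 (48.8% of all genes), and the median was 0.00 against -0.01.

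Between the 2 treated groups, the log2 fold change of coacervate against HA lay between -0.42 ± 0.24 for Aspn (interval -0.94 to 0.10, edgeR adjusted p = 0.613) and 0.33 ± 0.26 for Kera (-0.22 to 0.88, edgeR adjusted p = 0.754). The interval was -0.52 to 0.43 for Dcn, -0.68 to 0.50 for Bgn and -0.29 to 0.78 for Fmod. None of the 9 passed with edgeR, DESeq2 or limma, nor did any gene with edgeR (0% called), and none had an unadjusted edgeR p under 0.05, against 10.4% of all genes. Positive values numbered 5 of 9, against 49.7% of all genes. The intervals of Bgn and Fmod are wide enough to hold a difference as large as theirs between osteoarthritic and healthy cartilage.

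**Figure D3:**
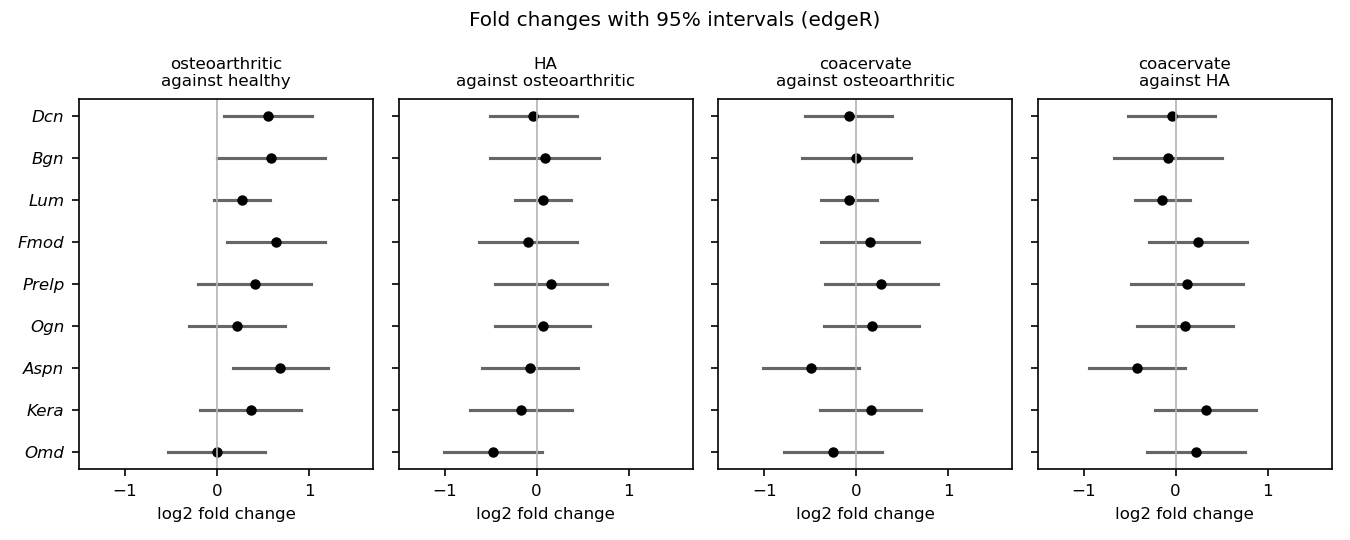
Points are log2 fold changes of the 9 tested SLRP genes and lines their 95% intervals from edgeR, 1 panel per comparison. In the first panel 8 of 9 points lie to the right of 0, from 0.22 to 0.69, and the intervals of Dcn, Fmod and Aspn leave out 0 while the other 6 span it. In each of the 3 panels on the treated groups all 9 intervals span 0.

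Each treated group was also compared with the same 4 healthy libraries. In the HA group, every library lay above every healthy one for Bgn, Fmod, Prelp and Aspn, which is 4 of 9 genes against 5.08% of all genes. The log2 fold change was 0.67 ± 0.28 for Bgn (edgeR adjusted p = 0.526), 0.62 ± 0.24 for Aspn (0.490), 0.56 ± 0.29 for Prelp (0.660) and 0.55 ± 0.25 for Fmod (0.584). Dcn had 0.52 ± 0.22, Lum 0.34 ± 0.14 and Omd -0.48 ± 0.25. No SLRP gene passed with edgeR, DESeq2 or limma (0.16% of all genes passed with edgeR), 5 had an unadjusted edgeR p under 0.05 (8.25% of all genes), and 8 were positive (50.4% of all genes). With the spread estimated from these 8 libraries alone, Bgn (edgeR adjusted p = 0.0376) and Prelp (0.0497) passed, among 2.72% of all genes.

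In the coacervate group, Prelp was the only SLRP gene whose libraries all lay above the healthy ones, against 1.75% of all genes. Its log2 fold change was 0.68 ± 0.29, and that of Fmod was 0.79 ± 0.25 (interval 0.26 to 1.33). Without coacervate replicate 3 these were 0.36 ± 0.26 and 0.48 ± 0.21. All 9 edgeR adjusted p-values were 1.0 after rounding, no gene passed with edgeR (0% of all genes), 2 SLRP genes had an unadjusted edgeR p under 0.05 (3.85% of all genes), and 8 were positive (51.1% of all genes). DESeq2 and limma called none of the 9 either. With the 12 osteoarthritic libraries pooled, the log2 fold change against healthy was 0.66 ± 0.21 for Fmod, 0.62 ± 0.24 for Bgn, 0.55 ± 0.24 for Prelp, 0.51 ± 0.19 for Dcn and 0.50 ± 0.21 for Aspn. Again none passed with edgeR, DESeq2 or limma (0.139% of all genes passed with edgeR), 6 had an unadjusted edgeR p under 0.05 (7.69% of all genes), and 8 were positive (52.1% of all genes). Bgn passed without osteoarthritic replicates 2 and 3, the lowest in Bgn of the pooled libraries (0.78 ± 0.15, edgeR adjusted p = 0.0391), among 0.697% of all genes.

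Across the 16 libraries the SLRP genes varied together, apart from Omd. Pearson's r of log2 normalised CPM was computed for 36 pairs, with permutation p-values adjusted over the 36, and 32 pairs were positive. Among the 28 pairs without Omd the median r was 0.61 and 18 had an adjusted p under 0.05. These values were not computed for pairs of all tested genes, so they do not set the SLRP genes apart from other genes. The permutations also shuffled libraries across groups. The highest was that of Bgn and Prelp (r = 0.91, Spearman's rho = 0.92, permutation p = 1e-05, adjusted 0.00036, the first being the smallest the permutations can give). It was 0.94 without the 2 libraries farthest from the median of Bgn, 0.88 without osteoarthritic replicates 2 and 3, and 0.90 once the group means were removed. Fmod and Prelp followed (r = 0.91, rho = 0.84, permutation p = 3e-05, adjusted 0.00036), with 0.82 without the 2 farthest libraries, 0.97 without osteoarthritic replicates 2 and 3 and 0.93 within groups. Bgn and Fmod had r = 0.86 (rho = 0.85, permutation p = 2e-05, adjusted 0.00036), with corresponding values of 0.85, 0.91 and 0.83.

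Dcn and Bgn, the pair closest in structure, were less tied in the 16 libraries (r = 0.47, rho = 0.46, permutation p = 0.0678, adjusted 0.0976). Their r was 0.69 without osteoarthritic replicates 2 and 3 and 0.23 within groups. Omd had the lowest values: with Bgn r = -0.55 (rho = -0.56, permutation p = 0.0288, adjusted 0.0545), with Prelp -0.44 (rho = -0.50, permutation p = 0.0895, adjusted 0.124) and with Lum -0.30 (rho = -0.40, permutation p = 0.255, adjusted 0.296). Without osteoarthritic replicates 2 and 3 these were -0.41, -0.28 and -0.22, so part of each negative value rested on those libraries.

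**Figure D4:**
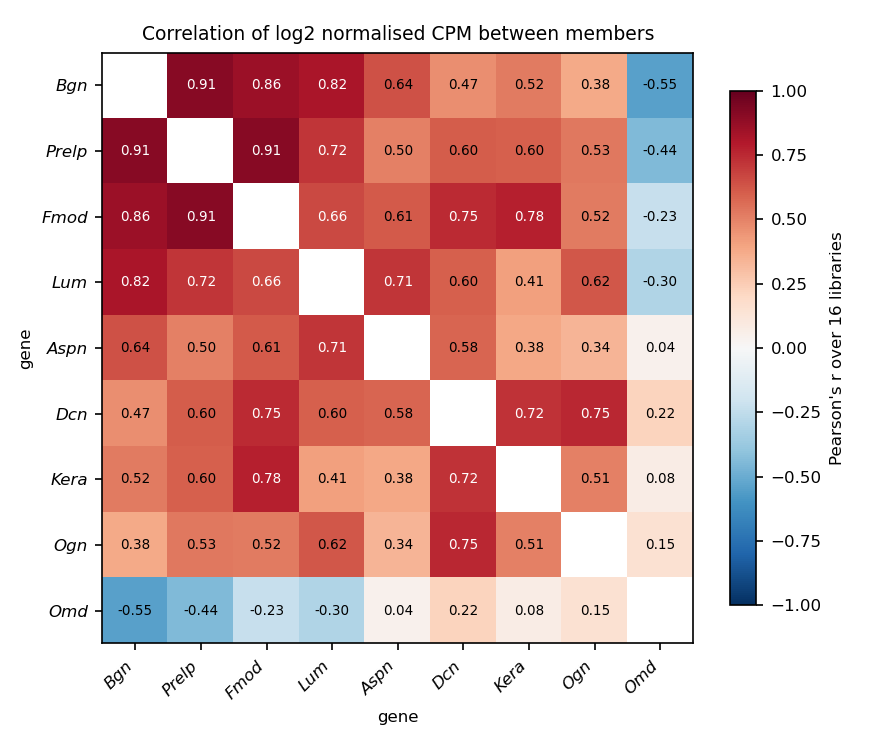
Cells give Pearson's r of log2 normalised CPM over the 16 libraries for each pair of the 9 tested SLRP genes, red for positive and blue for negative values. Bgn, Prelp and Fmod form the darkest block (0.86 to 0.91), and the Omd row runs from -0.55 to 0.22.

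Distance along the chromosome did not order the pairs by how closely they varied. In the rn6 coordinates of the expression table, Dcn (chr7:38742051-38782323), Lum (chr7:38819771-38826862), Kera (chr7:38858062-38865515) and Epyc (chr7:38897278-38934985) lie in a row on the plus strand. Dcn and Lum, 37.5 kb apart, had r = 0.60, Lum and Kera, 31.2 kb apart, 0.41, and Dcn and Kera, 75.7 kb apart, 0.72. Prelp (chr13:50749542-50761355, minus strand) and Fmod (chr13:50873605-50885563, plus strand) are 112 kb apart and had 0.91. Bgn (chrX:157319046-157331204, minus strand) is alone on its chromosome, yet had r = 0.91 with Prelp and 0.86 with Fmod. Ogn (chr17:15447716-15467359) and Aspn (chr17:15495790-15519282), both on the minus strand and 28.4 kb apart, had 0.34. Omd (chr17:14635184-14637832, minus strand) had 0.15 with Ogn.

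RefSeq promoter windows (build GRCr8, the 250 bases before the start) were available to print for 7 of the 10 genes, and not for Dcn, Bgn or Prelp. Those of Fmod (chr13:48045317-48045566, plus strand), which varied with Bgn and Prelp, Lum (chr7:34245456-34245705, plus strand), which had the smallest range over the libraries, and Omd (chr17:15274871-15275120, minus strand), which varied apart from the rest, are shown 5′ to 3′ for comparison. Capitals mark matches to the motifs searched.
Fmod: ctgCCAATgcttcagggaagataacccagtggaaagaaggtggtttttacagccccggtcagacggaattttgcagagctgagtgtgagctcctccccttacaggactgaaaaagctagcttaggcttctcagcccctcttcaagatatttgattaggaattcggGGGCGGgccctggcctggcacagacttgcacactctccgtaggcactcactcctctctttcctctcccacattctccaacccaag
Lum: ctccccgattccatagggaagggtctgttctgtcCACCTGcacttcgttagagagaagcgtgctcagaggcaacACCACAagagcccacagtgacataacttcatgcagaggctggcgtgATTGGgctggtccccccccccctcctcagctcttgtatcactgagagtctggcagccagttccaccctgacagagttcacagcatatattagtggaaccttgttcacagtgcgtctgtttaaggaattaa
Omd: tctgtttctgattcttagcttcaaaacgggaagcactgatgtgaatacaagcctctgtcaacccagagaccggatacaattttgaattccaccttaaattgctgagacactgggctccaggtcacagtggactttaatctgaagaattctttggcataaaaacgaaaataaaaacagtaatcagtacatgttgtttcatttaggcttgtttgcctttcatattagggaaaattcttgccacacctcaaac
Of 7 motifs searched on both strands, Fmod held the CCAAT box (CCAAT) and the GC box (GGGCGG). Lum held the E-box (CANNTG), the RUNX core (TGTGGT, here on the opposite strand) and the CCAAT box on the opposite strand, and no matches overlapped in these windows. Omd held none of the 7, which says only that these letters are not in this window. Over the 7 available windows, the E-box matched 5 (65.5% of 33469 rat promoter windows), the CCAAT box 3 (34.0%), the RUNX core 3 (14.5%), and the GC box 1, that of Fmod (30.5%). The TATA box (TATAAA) matched 1, that of Ogn (12.9%), the SOX core (AACAAT) 1, that of Kera, where it overlaps an E-box (10.3%), and the AP-1 site (TGANTCA) none (6.34%). GC content was 52.8% in both the Fmod and Lum windows and 38.8% in that of Omd, against a median of 51.2% over all windows.

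For each SLRP gene the 3 genes with the most similar profile were taken from 8461 named genes with a mean of at least 5 FPKM, as a description over the same 16 libraries. Bgn lay closest to the matrix genes Col15a1 (r = 0.99), Fn1, which encodes fibronectin (0.98), and Aebp1 (0.97). Prelp lay closest to Boc (0.97), Scara3 (0.97) and Cdon (0.96), and Fmod to Boc (0.95), Abi3bp (0.94) and the cartilage matrix gene Comp (0.94). Boc and Cdon encode related cell-surface receptors, and Boc stood in the lists of both Prelp and Fmod. Lum was nearest to Scpep1 (0.95), Bcat1 (0.91) and the protease gene Htra1 (0.89). Dcn was nearest to B3gnt9 (0.89), the microfibril gene Mfap2 (0.89) and Itgbl1 (0.88).

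Among the less abundant genes, Aspn was nearest to Fap (0.85), a protease of activated fibroblasts, Anxa5 (0.85) and Sgk1 (0.84). Kera was nearest to Nrep (0.85), the mesenchymal transcription factor gene Prrx1 (0.85) and Tmem263 (0.83), and Ogn to Serinc1 (0.80), Tmem100 (0.76) and Vit (0.74). The nearest genes of Omd were Ybx1-ps3 (0.85), Sar1b (0.83) and Rab2a (0.83), the latter pair encoding small GTPases. Without osteoarthritic replicates 2 and 3 these fell to 0.74, 0.74 and 0.72, whereas the r of Bgn with Col15a1 was 0.99.

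The levels of fibroblast and tendon markers moved with most SLRP genes. The mean level of 8 fibroblast markers (Col1a1, Thy1, Dpt and others) had r of 0.86 with Fmod, 0.81 with Dcn, 0.78 with Bgn, 0.78 with Aspn, 0.77 with Lum and 0.76 with Prelp. The permutation p-values of these 6, adjusted over 81 relations, ran from 0.00122 to 0.00599, and Spearman's rho from 0.76 to 0.89. They were 0.61 for Kera (adjusted permutation p = 0.0532), 0.52 for Ogn (0.143) and -0.25 for Omd (0.670). Without osteoarthritic replicates 2 and 3 the fibroblast r was 0.93 for Bgn and 0.90 for Prelp, and with group means removed it was 0.95 for Fmod and 0.92 for Prelp. For 3 tendon markers the highest r was that of Fmod (0.89, rho = 0.91, adjusted permutation p = 0.00081) and the lowest that of Omd (-0.23).

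The mean of 8 chondrocyte markers had r between -0.14 (Omd) and 0.41 (Lum), and none of those 9 relations had an adjusted permutation p under 0.05. Erythroid markers had r = -0.64 with Bgn (rho = -0.64, adjusted permutation p = 0.0418), -0.48 without osteoarthritic replicates 2 and 3 and -0.81 with group means removed. Within groups r was also -0.69 with Prelp and -0.61 with Fmod, whose values over the 16 libraries were -0.55 (adjusted permutation p = 0.0961) and -0.34 (0.585). With Omd erythroid markers had r = 0.58 (rho = 0.44, adjusted permutation p = 0.0793), and 0.29 without osteoarthritic replicates 2 and 3. Adipocyte markers had r = -0.72 with Lum (rho = -0.68, adjusted permutation p = 0.0103), which was -0.47 without the 2 libraries farthest from the median of Lum. With Bgn they had r = -0.61 (rho = -0.66, adjusted permutation p = 0.0430), which was -0.56 without the 2 libraries farthest from the median of Bgn. The osteoblast and osteocyte, skeletal muscle, macrophage and endothelial lists had r between -0.31 and 0.51, and none of those 36 relations had an adjusted permutation p under 0.05. With group means removed, the r of endothelial markers ran from -0.22 with Omd to 0.86 with Prelp, with 0.75 for Fmod and 0.73 for Bgn. That of skeletal muscle markers then ran from 0.11 with Lum to 0.60 with Dcn. No p-value was computed for these within-group values. With group means kept and osteoarthritic replicates 2 and 3 left out, the endothelial r was 0.29 for Prelp, 0.28 for Fmod and -0.005 for Bgn. The skeletal muscle r of Dcn, with group means kept, was 0.12 over the 16 libraries. It was -0.21 without the 2 libraries farthest from the median of Dcn. All 8 fibroblast markers were above 0 in every group, and their CPM sum was 7971 to 12680 in healthy, 5771 to 16045 in osteoarthritic, 9845 to 15209 in HA and 8380 to 12637 in coacervate libraries. Within the osteoarthritic group it was 14347, 5771, 5799 and 16045 CPM in replicates 1 to 4, the same split as Bgn and Prelp. Col1a1, which bone cells also express, dominated this sum. It averaged 1564 FPKM over the 16 libraries, against 8.69 to 55.7 FPKM for the other fibroblast markers. The split of the sum is therefore mostly that of Col1a1. The part of cell makeup in the SLRP values was not tested.

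**Figure D5:**
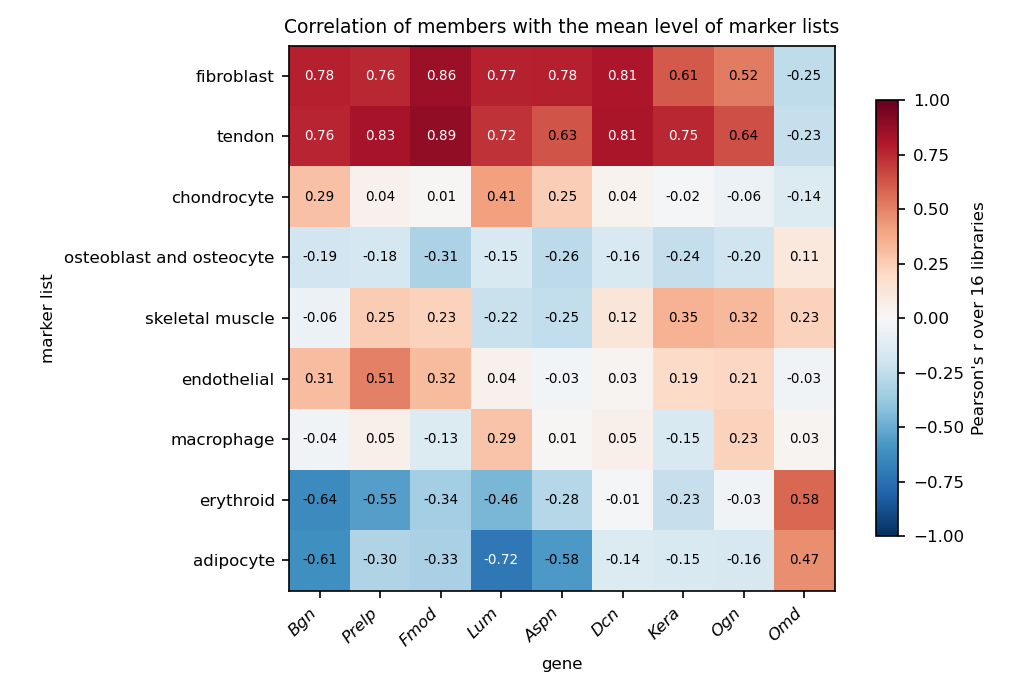
Cells give Pearson's r over the 16 libraries between each of the 9 tested SLRP genes and the mean log2 level of a marker list. The fibroblast and tendon rows are red for every gene except Omd (0.52 to 0.89), and the chondrocyte row lies between -0.14 and 0.41.

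In osteoarthritic against healthy cartilage, where 0.502% of all genes passed, 3 of 8 fibroblast markers rose: the microfibril gene Mfap5 by 1.06 ± 0.20 on the log2 scale (edgeR adjusted p = 0.0290), Cthrc1 by 1.0 ± 0.20 (0.0421) and Dpt, whose product dermatopontin binds decorin, by 1.26 ± 0.26 (0.0466). Their list had a median of 0.76, that of 3 tendon markers 0.28, and that of 8 tested chondrocyte markers 0.18, with none of the latter 2 lists' genes passing. Dpt also passed in HA against healthy (1.44 ± 0.26, edgeR adjusted p = 0.0453), and Dpt (1.27 ± 0.23, 0.0495) and Mfap5 (0.96 ± 0.17, 0.0495) passed with the 3 osteoarthritic groups together.

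The partners of the SLRPs were read from further lists, again for osteoarthritic against healthy cartilage, in which 0.502% of all genes passed and 52.1% had a positive value. Other members of the family were scarce: 6 of 8 were in the table and 4 were tested, none passed, and their median was 0.02, with Chad, encoding chondroadherin, at -0.21 ± 0.26 and Chadl at 0.09 ± 0.23. Of 15 tested collagen genes none passed and 13 were positive, with a median of 0.19. Col3a1, the fibril collagen of loose and repairing tissue, had the smallest p (1.56 ± 0.37, edgeR adjusted p = 0.0741), followed by Col5a3 (1.23 ± 0.41, 0.190). Col2a1, the main cartilage collagen, had 0.11 ± 0.32 and Col1a1 0.15 ± 0.32.

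The enzymes that build SLRP chains showed no common direction. Of 22 genes of chondroitin and dermatan sulphate synthesis none passed and 9 were positive (median -0.02), with Chpf, a chondroitin polymerising factor, at 0.46 ± 0.15 (edgeR adjusted p = 0.189) and B4galt7, a linker enzyme, at 0.43 ± 0.15 (0.205). Of 11 genes of keratan sulphate synthesis and tyrosine sulphation none passed and 6 were positive (median 0.16). Fut8, a core fucosyltransferase, had -0.26 ± 0.08 (edgeR adjusted p = 0.171) and Tpst1, a tyrosine sulphotransferase, 0.37 ± 0.12 (0.179).

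Of 17 growth factors and receptors that SLRPs bind, none passed and 9 were positive (median 0.04), with Ccn2 at 0.73 ± 0.26 (edgeR adjusted p = 0.209) and Bmp2 at -0.61 ± 0.22 (0.215). Of 10 proteases 1 rose, Mmp3, which encodes stromelysin, a protease able to cut decorin, by 3.49 ± 0.65 on the log2 scale (edgeR adjusted p = 0.0290). Mmp3 also rose in HA against healthy cartilage, by 3.51 ± 0.65 (edgeR adjusted p = 0.0453). In the coacervate group its values were 1.65 ± 0.61 against healthy and -1.84 ± 0.60 against untreated osteoarthritic cartilage (edgeR adjusted p = 0.137). No gene of these 6 lists passed in either treated group against untreated osteoarthritic cartilage, or between the treated groups.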

How the data were processed

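Per the labels' protocols, libraries were made from poly(A)-selected RNA of RIN above 7 with a dUTP strand step and read from both ends. Software named in the submitters' processing notes comprises StringTie 2.1.6, HISAT2 2.2.1, cutadapt 1.9, edgeR and DESeq2, with build rn6. How reads were counted, on which annotation and with which strand setting is not given in the sources used here, so genes overlapping on opposite strands are uncertain. For every gene and library the authors deposited a whole-number count and an FPKM value, per the file headers. The authors scaled FPKM to gene length and depth. Counts of 2 (6480) outnumbered counts of 3 (4576). Low counts usually become rarer as they rise, so this cannot show whether mates of a pair were counted separately. If they were, counting error is understated. The reads also carry no molecular identifiers, which understates counting error too.

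Genes with at least 1 FPKM in at least 4 of 16 libraries (14337 of 23552) were tested with edgeR 4.0.16 (R 4.3.3) after TMM scaling, in 1 fit of 4 groups. This kept 9 of 10 SLRP genes. Log2 levels used a prior count of 2, and symbols shared by several rows numbered 972. Alternatives used DESeq2 1.42.0 and limma 3.58.1 on log2(FPKM + 1) and log2(FPKM + 0.1). Others used different scalings and filters, left out haemoglobin genes or libraries, or added a replicate block. Correlations used 100000 permutations (python 3.11.15, scipy 1.17.1). The procedure was tested on simulated counts. The SLRP genes and all lists were chosen with earlier results of these data known. Named genes were all 10 SLRP genes, up to 4 genes per list that passed in a comparison (otherwise the 2 with the smallest p in osteoarthritic against healthy), the 3 nearest profiles per gene, and the 3 highest and 3 lowest pairs. Marker genes, Col2a1, Col1a1, Acan and the Dcn and Bgn pair were named outside this rule.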

Additional observations from a re-analysis of the deposited data

How the results depend on the processing

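Each of the 7 comparisons was recomputed under 28 alternatives (27 for the 3 osteoarthritic groups together). No call was reversed, and no SLRP gene passed in either treated group against untreated osteoarthritic cartilage, between the treated groups, or in coacervate against healthy. In osteoarthritic against healthy, 0 SLRP genes passed in 26 of 28 alternatives. Without osteoarthritic replicates 2 and 3 together, the pair lowest in Bgn, Fmod and Prelp of their group, 1 passed (Bgn). When coacervate replicate 3 was left out too, 3 passed (Bgn, Fmod and Prelp, smallest edgeR adjusted p = 0.00778). That was an alternative chosen after seeing the data, in which 2.40% of all genes passed. In HA against healthy 2 passed (Bgn and Prelp) with only the libraries compared, and 1 (Bgn, among 1.91% of all genes) in the alternative chosen after seeing the data. With the 3 osteoarthritic groups together against healthy 1 passed (Bgn) without osteoarthritic replicates 2 and 3, and 1 (Bgn, among 1.04% of all genes) with coacervate replicate 3 left out as well. Leaving out 1 replicate at a time gave 0 to 0 SLRP genes in every comparison. In osteoarthritic against healthy the log2 fold change over the alternatives ran from 0.42 to 0.66 for Dcn, 0.33 to 1.07 for Bgn, 0.47 to 0.91 for Fmod, 0.12 to 0.83 for Prelp, 0.47 to 0.86 for Aspn and -0.54 to 0.17 for Omd. Of the 88 sign changes of values called in no setting, 78 fell in the comparisons of treated groups with untreated cartilage or with each other, and 10 were those of Omd in osteoarthritic against healthy. With a replicate block 0 SLRP genes passed in every comparison. The replicate numbers showed no clear pairing of the libraries: of 24 same-numbered pairs, 4 had deviations correlated above 0.1 (range -0.386 to 0.211), and 1 of 16 libraries matched its own number best. With 4 libraries a group and a pair that stood apart, these values cannot exclude a pairing. For Epyc, with at most 98 counts in a library, depth limits what could be seen.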

Other observations

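The distance between Omd and its neighbours depended on the genome build. In the rn6 coordinates of the expression table Omd lies 809.9 kb from Ogn, whereas in the RefSeq GRCr8 table the promoter windows of Ogn (chr17:15258996-15259245), Omd (chr17:15274871-15275120) and Aspn (chr17:15310470-15310719) follow each other closely on the same strand. Whether this moved any reads counted for Omd was not tested.

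Spread differed between the groups for several SLRP genes. The SD of Ogn was 27.3% of the mean in healthy, 9.85% in osteoarthritic, 34.9% in HA and 30.8% in coacervate libraries. For Omd it was 22.2%, 39.1%, 23.7% and 10.5%, and for Kera 31.3%, 11.5%, 17.9% and 37.8%. These differences in spread were not tested.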
